A study of Mus musculus with 40 samples.

Results

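The genes described here are the receptors for the constant (Fc) part of immunoglobulin G and their shared signalling chain, measured in choroid and retina after laser injury. *Fcer1g*, *Fcgr1*, *Fcgr3*, *Fcgr4*, *Fcgr2b* and *Fcgrt* were taken by symbol from the 54307 genes of the normalized count table, and all 6 were found. Each was read in 40 libraries, a choroid and a retina from each of 20 mice, with 5 mice in every combination of genotype and diet. Mice were C57BL/6J animals of both sexes, and all carried floxed *Tgfbr2* alleles on both chromosomes. *Tgfbr2ΔEC* mice also carried *Cdh5*-CreERT2, a tamoxifen-inducible Cre recombinase under the promoter of endothelial cadherin, so deletion was limited to cells that use this promoter. Controls were littermates without the recombinase, and both genotypes received tamoxifen eye drops from 6 to 7 weeks of age. The diet of 10 mice held PLX5622 (PLX), an inhibitor of the receptor for colony stimulating factor 1 that depletes mononuclear phagocytes (MP), and the other mice received none. PLX feeding ran from the first tamoxifen drops to the end of the experiment, and the groups are called control – PLX, *Tgfbr2ΔEC* – PLX, control + PLX and *Tgfbr2ΔEC* + PLX. Every eye received 6 laser burns, and tissue was taken 3 days later, so no group was free of laser injury. Of the choroid, only the central part that held the lesions was sequenced. The questions addressed were how far MP depletion changed these genes, whether endothelial loss of *Tgfbr2* changed them, and whether choroid and retina differed.

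Fc receptors link antibody to cellular responses. *Fcgr1* (CD64), *Fcgr3* (CD16) and *Fcgr4* encode activating receptors for immunoglobulin G, which bind its Fc part at the cell surface and signal through the common gamma chain encoded by *Fcer1g*, whose activation motif recruits the kinase *Syk*. *Fcgr2b* (CD32B) encodes the inhibitory receptor, which recruits the phosphatase *Inpp5d* instead and which in mice is also the Fc gamma receptor of B cells. *Fcgrt* encodes the neonatal Fc receptor, a relative of class I major histocompatibility molecules that pairs with beta-2 microglobulin and carries immunoglobulin G and albumin through cells, and is used by endothelium and epithelium as well as by macrophages. Microglia, the resident macrophages of the retina, and the macrophages of the choroid are known to carry the activating and inhibitory receptors.

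*Fcer1g* (ENSMUSG00000058715) lies on chr1:171057141-171062219 of GRCm39, near *Fcgr3* (ENSMUSG00000059498, chr1:170878738-170893549), *Fcgr4* (ENSMUSG00000059089, chr1:170846466-170857330) and *Fcgr2b* (ENSMUSG00000026656, chr1:170786186-170804177). *Fcgr1* (ENSMUSG00000015947) lies apart, on chr3:96190225-96201338, and so does *Fcgrt* (ENSMUSG00000003420), on chr7:44742412-44756819. Because 5 of the genes changed together with PLX, the 100 bases before each RefSeq start site (build GRCm38.p6) are shown, written 5′ to 3′ on the strand of the gene and ending 1 base before the start. Capitals mark GAGGAAG or its reverse complement CTTCCTC, a purine-rich word of the kind bound by Ets family factors, searched on both strands. For *Fcgr3*, which has 2 start sites there, the upstream bases of 1 are given.
Fcgr1 (chr3:96293970-96294069, minus strand): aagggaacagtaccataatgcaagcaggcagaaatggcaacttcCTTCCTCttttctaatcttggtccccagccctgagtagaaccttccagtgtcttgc
Fcgr3 (chr1:171059395-171059494, minus strand): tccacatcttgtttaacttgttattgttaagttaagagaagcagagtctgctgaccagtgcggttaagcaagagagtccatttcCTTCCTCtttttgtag
Fcgr4 (chr1:171018826-171018925, plus strand): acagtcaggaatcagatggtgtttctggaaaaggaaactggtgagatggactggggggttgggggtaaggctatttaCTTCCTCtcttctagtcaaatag
Fcer1g (chr1:171234350-171234449, minus strand): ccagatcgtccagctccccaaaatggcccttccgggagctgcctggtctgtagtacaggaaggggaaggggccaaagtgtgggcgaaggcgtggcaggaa
Fcgr2b (chr1:170976072-170976171, minus strand): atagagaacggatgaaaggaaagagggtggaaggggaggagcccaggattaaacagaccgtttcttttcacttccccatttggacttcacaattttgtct
Fcgrt (chr7:45103823-45103922, minus strand): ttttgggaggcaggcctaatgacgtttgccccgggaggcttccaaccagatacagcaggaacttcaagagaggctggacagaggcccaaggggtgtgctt
The word occurred in 3 of the 6 windows, those of the activating receptors *Fcgr1*, *Fcgr3* and *Fcgr4*. It began 56 bases before the start of *Fcgr1*, 16 before that of *Fcgr3* and 23 before that of *Fcgr4*. Of 27025 genes with a RefSeq promoter, 5.48% held the word in the same window. It was not in the windows of *Fcer1g*, *Fcgr2b* and *Fcgrt*. *Fcgr1* and *Fcgr3* shared a run of 14 bases around it, ttccttcctctttt, which occurred in the windows of 2 genes, namely these. For the other start site of *Fcgr3* the word began 7 bases before the start. The run shared with *Fcgr1* was then 10 bases long and occurred in the windows of 49 genes. The shorter GGAAG, with its reverse complement CTTCC, was in all 6 windows and in 39.35% of all windows of that length. The words were chosen with the sequences in view, and a match is a description of the letters.

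*Fcgr2b* and *Fcgr3* are close paralogs, which bears on how reads were shared between them. Their coding sequences held 3 identical runs of at least 50 bases, the run length of the sequencing, with 313 bases in all out of 879 in *Fcgr2b* and 801 in *Fcgr3*. One of these, of 113 bases in exon 4 of both genes, is shown because a read within it could not be assigned by sequence alone. It is at chr1:170794129-170794241 in *Fcgr2b* and at chr1:170881622-170881734 in *Fcgr3* (GRCm39, minus strand).
Fcgr2b and Fcgr3, shared run: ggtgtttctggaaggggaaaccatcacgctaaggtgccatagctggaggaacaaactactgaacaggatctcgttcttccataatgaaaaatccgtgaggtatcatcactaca
Over all annotated transcripts, 7.3% of the words of 50 bases in *Fcgr3* and 4.9% of those in *Fcgr2b* also occurred in another gene, against 0% in *Fcer1g*, *Fcgr1*, *Fcgr4* and *Fcgrt*. Levels of *Fcgr2b* and *Fcgr3* are therefore uncertain to the extent that the estimation split such reads. In the annotation used here, the span of *Fcer1g* overlaps that of the long non-coding gene *Gm71631* on the same strand. *Gm26110* likewise lies within the span of *Fcgr4*, and the precursor of *Mir6546* within that of *Fcgr3*. No transcript word of 50 bases was shared between the genes of these pairs. *Gm35090*, *Gm38204* and *Gm45669* overlap *Fcgr4*, *Fcgr2b* and *Fcgrt* on the opposite strand, which a stranded library separates.

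Depth came to between 21651239 and 28216280 reads in the choroids and between 20921017 and 30328016 in the retinas, as read from the smallest steps among low values. A single choroid read then stood for 0.904 to 1.184 normalized counts and a retina read for 0.747 to 1.126, so that the floor used below, 3 reads, lay at 2.71 to 3.55 and 2.24 to 3.38, which covers counting error only. Both tissues had been scaled together, since the median ratio of each library to the mean profile was 1.01 in both. Marker scores were the mean log2(normalized count + 1) over a list. The score of 10 neural retina markers reached 11.37 to 12.91 in *Tgfbr2ΔEC* – PLX choroids, against 7.75 to 10.70 in control – PLX, 7.69 to 12.86 in control + PLX and 9.02 to 10.34 in *Tgfbr2ΔEC* + PLX choroids, and was 15.84 to 16.45 in retinas. The 9 markers of retinal pigment epithelium (RPE) and choroid scored 13.33 to 13.89 in choroids and 4.36 to 7.14 in retinas. *Tgfbr2* itself had 10503 ± 425 normalized counts (SD, n = 5) in control – PLX and 10176 ± 1077 (SD, n = 5) in *Tgfbr2ΔEC* – PLX choroids, and was not called between genotypes in either tissue or diet, with log2 differences between -0.32 and 0.02.

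In the choroid, RNA of the gamma chain and of all 4 receptors that sit at the surface of phagocytes fell to about the same fraction with PLX, and *Fcgrt* did not change detectably. The mean level left with PLX, over both genotypes, was 23.1% for *Fcer1g*, 18.7% for *Fcgr1*, 26.6% for *Fcgr3*, 23.3% for *Fcgr4* and 23.4% for *Fcgr2b*. For *Fcgrt* it was 96.7%. By limma on log2(normalized count + 1), with Benjamini-Hochberg adjustment over 23619 genes and a threshold of 0.05, 5 of the 6 genes were lower with PLX, against 5.06% of all genes tested. Of all genes, 1195 were lower and 489, or 2.07%, were higher.

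*Fcer1g*, the gamma chain, had 1642, 1979, 1928, 1707 and 1949 normalized counts in the 5 control – PLX choroids. In the *Tgfbr2ΔEC* – PLX choroids it had 1905, 1539, 1814, 1890 and 1691. The same gene had 326.1, 740, 435.7, 353.9 and 285.4 in control + PLX choroids and 402.3, 424.4, 501.7, 240.5 and 465.2 in *Tgfbr2ΔEC* + PLX choroids. Every choroid with PLX was below every choroid without it, and the highest of them, mouse 12, was the highest of its group for *Fcer1g* and for all 4 Fcgr genes. The log2 difference was -2.17 ± 0.145 (standard error, adjusted p = 9.44e-10).

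The activating receptors showed the same. *Fcgr3* had 1751, 1910, 1574, 1539 and 1681 normalized counts in control – PLX and 1896, 1551, 1740, 1471 and 1384 in *Tgfbr2ΔEC* – PLX choroids. These became 350.6, 710.2, 494.2, 472 and 353 in controls and 348.4, 412.5, 563.1, 240.8 and 438 in *Tgfbr2ΔEC* mice. The groups with and without PLX did not overlap, and the log2 difference was -1.96 ± 0.136 (adjusted p = 1.48e-09), the smallest of the 5 called. *Fcgr1*, the high-affinity receptor, ranged from 517.2 to 1138 normalized counts in the 10 choroids without PLX and from 70.87 to 251.4 in the 10 with it. Its log2 difference, -2.47 ± 0.185 (adjusted p = 4.53e-09), was the largest. *Fcgr4* had 228.6 to 379.2 in the choroids of mice without PLX and 31.48 to 119.3 in those of PLX-fed mice, and its log2 difference was -2.17 ± 0.199 (adjusted p = 9.48e-08).

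The inhibitory receptor fell as well. *Fcgr2b* had 3280, 3041, 2987, 3135 and 4152 normalized counts in control – PLX and 2635, 2849, 3230, 3519 and 2475 in *Tgfbr2ΔEC* – PLX choroids. Under PLX the values were 660.3, 976.1, 947.1, 914.6 and 380 in controls and 853.9, 687.5, 856.2, 475.5 and 567.7 in *Tgfbr2ΔEC* mice. No value with PLX reached the lowest without it, and the log2 difference was -2.14 ± 0.152 (adjusted p = 1.94e-09). With the values of *Fcgr2b* and *Fcgr3* summed to 1 feature, a fit added after seeing the data, which removes the question of how their reads were split, the log2 difference was -2.07 ± 0.132 (adjusted p = 4.28e-10). Per mouse, the ratio of *Fcgr3* to *Fcgr2b* was 0.536 ± 0.0919 (SD, n = 10) without PLX and 0.617 ± 0.156 (SD, n = 10) with it. The ratio of *Fcgr1* to *Fcgr2b* was 0.261 ± 0.052 and 0.214 ± 0.0682, and that of *Fcgr4* to *Fcgr2b* 0.102 ± 0.0207 and 0.105 ± 0.0388 (SD, n = 10 each). These ratios of normalized counts, not corrected for length, moved by less than their own spread between mice.

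*Fcgrt* stood apart from the other 5. It had 3832, 4716, 4065, 4456 and 3890 normalized counts in control – PLX and 3599, 4319, 4042, 4888 and 5244 in *Tgfbr2ΔEC* – PLX choroids. With PLX it had 4145, 5876, 3501, 3942 and 3531 in controls and 3805, 4259, 3857, 4176 and 4549 in *Tgfbr2ΔEC* mice. All 4 groups overlapped, and the log2 difference was -0.05 with a 95% confidence interval from -0.24 to 0.13 (adjusted p = 0.806), an interval that leaves out a fall of the size seen for the other 5. The highest choroid was again mouse 12, and mouse 15, the lowest of control + PLX for 4 of the other 5 genes, had the highest neural retina score of its group, 12.86.

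**Figure D1:**
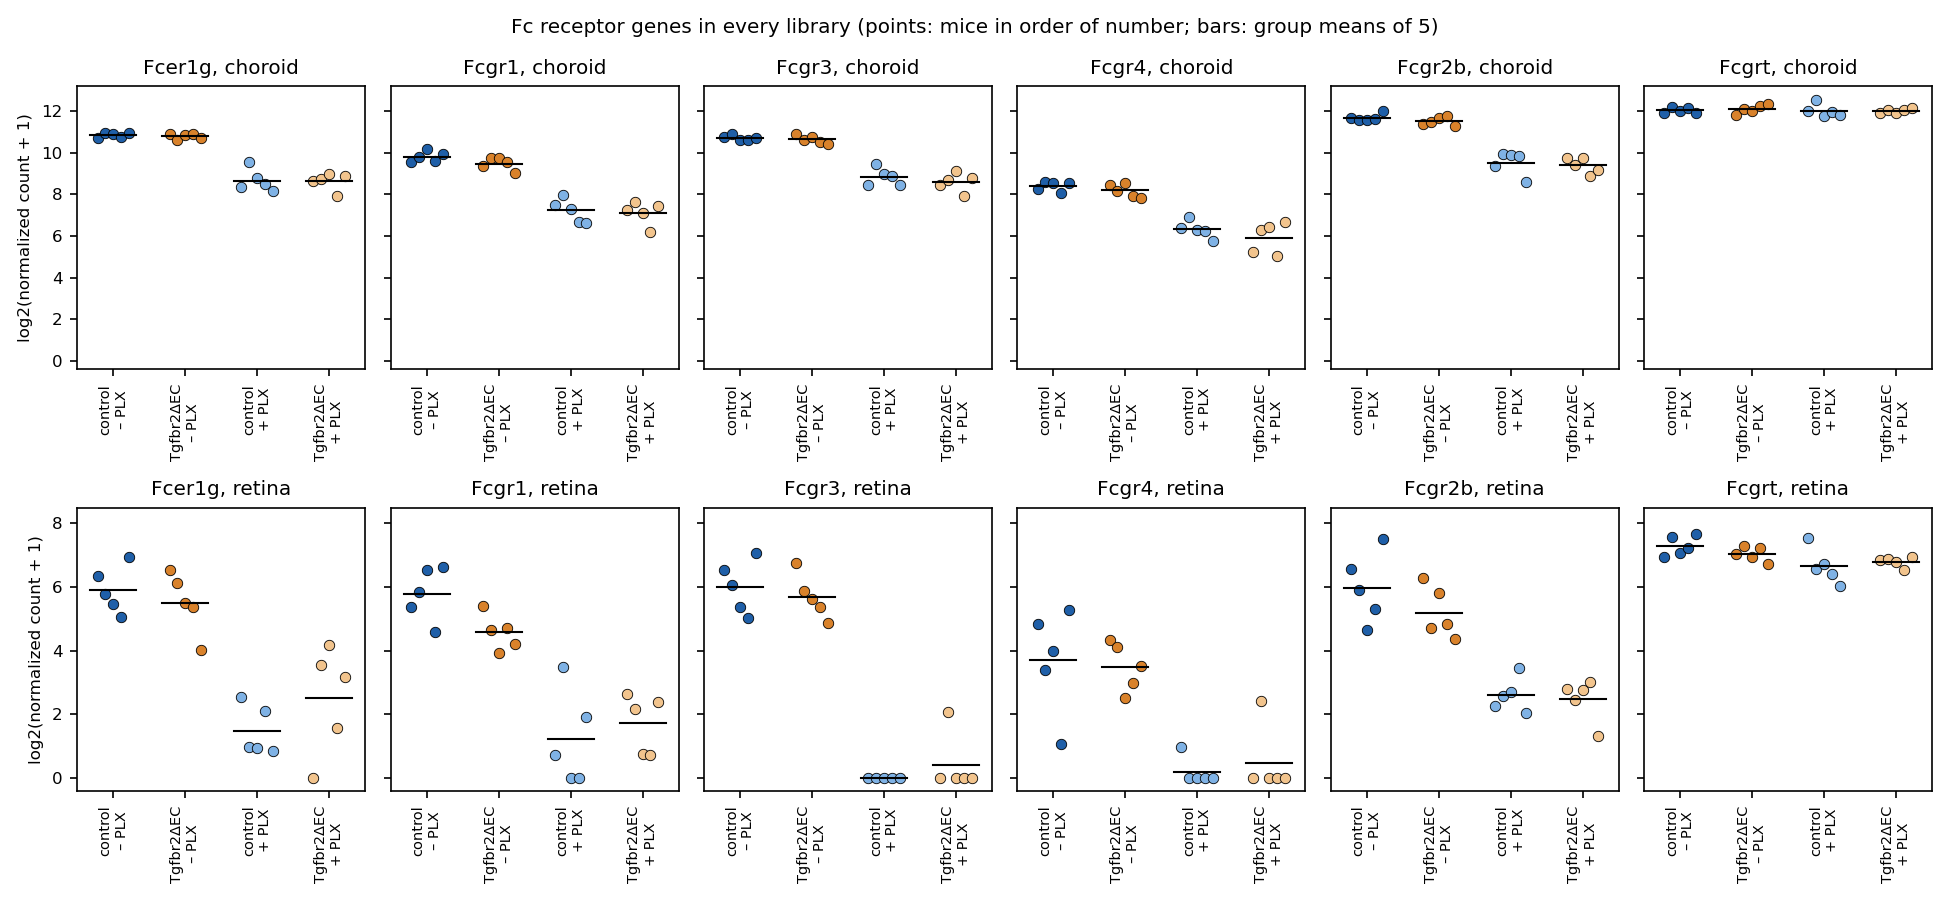
Level of each Fc receptor gene in every library, as log2(normalized count + 1), in choroid (top row) and retina (bottom row), by genotype and diet. Points are mice, bars are means of 5, and the rows have different vertical ranges. In choroid the points of 5 genes drop by about the same distance with PLX while those of *Fcgrt* stay level, and in retina *Fcgr3* is at 0 in 9 of 10 libraries with PLX.

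The drop was also compared with that of *Fcer1g* in the same library, by subtracting the log2 value of *Fcer1g* before the fit. Because *Fcer1g* itself fell, 96.5% of all genes were called in this comparison in choroid and 99.5% in retina, so a call says only that a gene did not follow *Fcer1g*. All genes also shared the spread of *Fcer1g* between mice, which the fit pooled over genes as if independent. Intervals and p-values of this comparison may therefore be too narrow, most of all in retina. In choroid, *Fcgr1*, *Fcgr3*, *Fcgr4* and *Fcgr2b* differed from *Fcer1g* by -0.30 (95% confidence interval -0.63 to 0.04), 0.21 (-0.04 to 0.46), 0.005 (-0.37 to 0.38) and 0.03 (-0.28 to 0.34) on the log2 scale. None of the 4 was called (adjusted p = 0.0818 for *Fcgr1* and 0.103 for *Fcgr3*). *Fcgr1* was called without mouse 11 (-0.37, adjusted p = 0.0307) and when the neural retina score was a covariate (log2 difference -0.42, adjusted p = 0.024), and *Fcgr3* was called without mouse 12 (0.24, adjusted p = 0.0321). *Fcgrt* differed by 2.12 (95% confidence interval 1.799 to 2.433, adjusted p = 5.77e-12).

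The choroid difference was as large in each genotype. In controls the log2 differences with PLX were -2.19 for *Fcer1g*, -2.58 for *Fcgr1*, -1.87 for *Fcgr3*, -2.07 for *Fcgr4* and -2.17 for *Fcgr2b*, and 5 of 6 genes were lower, against 3.15% of all genes. In *Tgfbr2ΔEC* mice they were -2.16, -2.36, -2.05, -2.26 and -2.12 in the same order, again with 5 of 6 lower, against 3.5% of all genes. *Fcgrt* was at -0.02 in controls and -0.09 in *Tgfbr2ΔEC* mice. The difference between the 2 PLX effects was called for 0 of 6 genes and for 0% of all genes (limma), with 1552 genes and 0 of the 6 at an unadjusted p under 0.05. For *Fcgr1* it was 0.22 on the log2 scale with a 95% confidence interval from -0.56 to 0.99, and for *Fcgr4* -0.20 (-1.02 to 0.63). When the neural retina score was a covariate, *Fcgr1* turned to -0.19 and *Fcgr4* had -0.54, the widest of the 6 (adjusted p = 1 for both).

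In the retina the same 5 genes fell with PLX, from lower levels and close to the floor. Of the 6, 5 were lower over both genotypes, against 1.08% of the 23243 genes tested, of which 250 were lower and 4 higher. Without PLX the means of these 5 lay between 14.92 and 64.32 normalized counts over both genotypes, and with PLX between 0.3217 and 5.208. Differences on this scale are set in part by the added 1 where a gene is near 0, and are no bound on a fold change.

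*Fcgr3* changed most. It had 92.23, 65.58, 40.25, 31.97 and 132.2 normalized counts in control – PLX retinas and 106, 58.25, 48.18, 40.29 and 28.22 in *Tgfbr2ΔEC* – PLX retinas. It was 0 in all 5 control + PLX retinas and in 4 of the 5 *Tgfbr2ΔEC* + PLX retinas, and the remaining one, mouse 17, had 3.217. Against the floor of 3 reads per library, with a mean of 2.93 normalized counts in the control + PLX retinas, *Fcgr3* was at least 24.7-fold lower in controls. The log2 difference over both genotypes was -5.65 ± 0.327 (adjusted p = 1.84e-10), and it ran from -6.55 with a pseudocount of 0.5 to -3.57 with one of 5.

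*Fcgr2b*, in contrast, was not at 0 in any retina. It had 94.61, 58.68, 24.11, 38.43 and 180 normalized counts in control – PLX and 76.86, 25.27, 55.32, 27.35 and 19.52 in *Tgfbr2ΔEC* – PLX retinas. Retinas with PLX had 3.813, 5.028, 5.503, 9.937 and 3.079 in controls and 6.019, 4.411, 5.755, 7.023 and 1.508 in *Tgfbr2ΔEC* mice. It lay above the floor in 9 of the 10 retinas with PLX, where *Fcgr3* was at or under the floor in 10 of 10. Its log2 difference was -3.06 ± 0.350 (adjusted p = 7.43e-06), and the summed feature of both genes had -4.13 ± 0.321 (adjusted p = 1.81e-08). Relative to *Fcer1g*, *Fcgr3* fell further by 1.93 on the log2 scale (95% confidence interval -3.21 to -0.65, adjusted p = 0.00319; -2.54 with a pseudocount of 0.5 and -0.87 with one of 5), while *Fcgr2b* differed by 0.66 (-0.57 to 1.90, adjusted p = 0.292), *Fcgr1* by 0.008 (adjusted p = 0.99) and *Fcgr4* by 0.45 (adjusted p = 0.507). *Fcgr4* was called with a pseudocount of 5 (1.03, adjusted p = 0.011). These intervals and p-values may be too narrow, because every gene carried the same spread of *Fcer1g*. *Fcgr3* and *Fcgr2b* were not tested against each other.

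*Fcer1g* had 80.01, 53.69, 43.16, 32.17 and 123.2 normalized counts in control – PLX and 91.06, 68.19, 44.37, 40.13 and 15.2 in *Tgfbr2ΔEC* – PLX retinas. In control + PLX retinas it had 4.873, 0.9637, 0.9161, 3.293 and 0.8047, and in *Tgfbr2ΔEC* + PLX retinas 0, 10.7, 17.31, 1.981 and 8.042. The control groups were far apart, whereas mouse 18 of *Tgfbr2ΔEC* + PLX lay above mouse 10 of *Tgfbr2ΔEC* – PLX. The log2 difference over both genotypes was -3.72 ± 0.463 (adjusted p = 2.45e-05).

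*Fcgr1* had 40.47, 56.66, 92.27, 23.18 and 97.48 normalized counts in control – PLX and 41.32, 24.36, 14.33, 25.2 and 17.49 in *Tgfbr2ΔEC* – PLX retinas. Its values with PLX were 0.6492, 10.23, 0, 0 and 2.781 in controls and 5.205, 3.497, 0.6907, 0.6582 and 4.205 in *Tgfbr2ΔEC* mice. No retina with PLX reached the lowest without it, and the log2 difference was -3.71 ± 0.429 (adjusted p = 8.48e-06). *Fcgr4* had 27.58, 9.613, 15.07, 1.101 and 38.19 in control – PLX and 19.2, 16.36, 4.669, 7.005 and 10.42 in *Tgfbr2ΔEC* – PLX retinas. With PLX it was 0 in 8 of 10 retinas, with 0.9681 in mouse 11 and 4.361 in mouse 17. The level of mouse 4 without PLX was itself under the floor, and the log2 difference was -3.27 ± 0.466 (adjusted p = 0.000144).

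*Fcgrt* in retina had 122.3, 190.2, 133.6, 147.4 and 203.4 normalized counts in control – PLX and 129.7, 154.4, 121.4, 148.3 and 104.3 in *Tgfbr2ΔEC* – PLX mice. With PLX it had 185.9, 94.1, 103.8, 84.24 and 65.2 in controls and 115, 117.9, 109.6, 91.17 and 121.2 in *Tgfbr2ΔEC* mice. The groups overlapped, and the log2 difference was -0.44 with a 95% confidence interval from -0.77 to -0.11, which was not called (adjusted p = 0.413). Mouse 11 was the only control + PLX retina above 103.8. Without it *Fcgrt* was called, at -0.55 over both genotypes (adjusted p = 0.0376) and at -0.86 in controls (adjusted p = 0.0263).

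**Figure D2:**
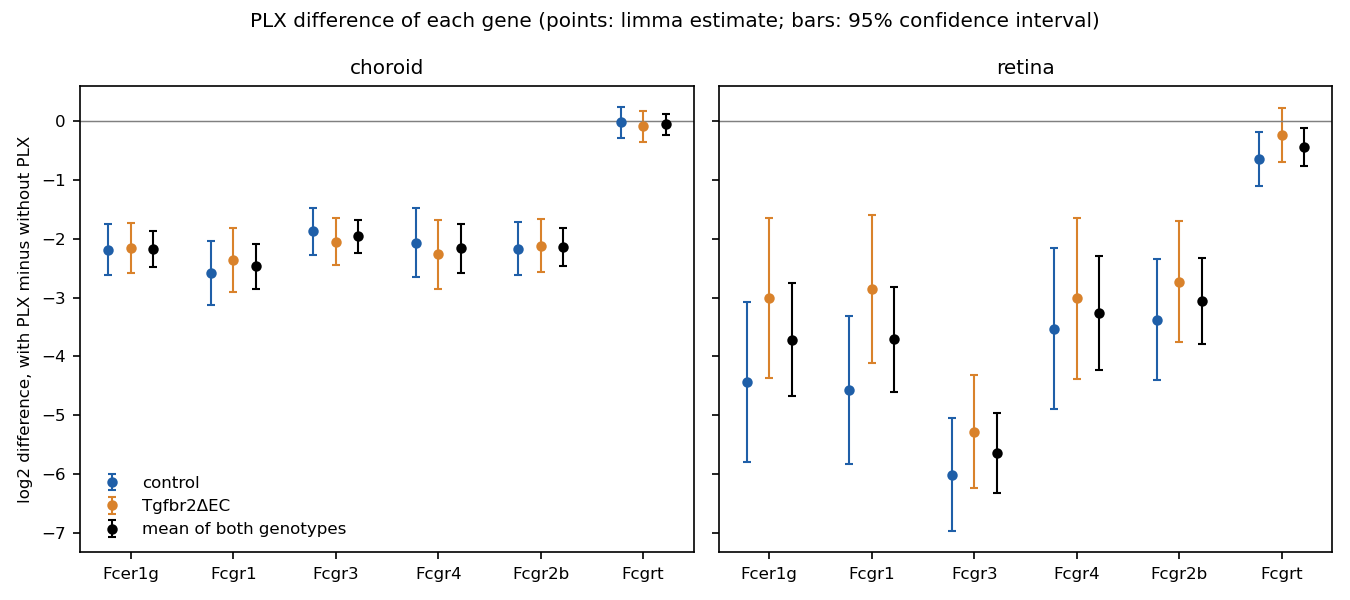
Difference with PLX of each gene in choroid (left) and retina (right), as log2 difference with PLX minus without PLX, from limma with 95% confidence intervals. Blue points are controls, orange points *Tgfbr2ΔEC* mice and black points the mean of both. In choroid 5 genes lie together, from -1.96 to -2.47 over both genotypes, with *Fcgrt* at -0.05, and in retina *Fcgr3* lies lowest and the intervals are wider.

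By genotype, the retinas of controls had log2 differences with PLX of -4.43 for *Fcer1g*, -4.57 for *Fcgr1*, -6.01 for *Fcgr3*, -3.53 for *Fcgr4* and -3.38 for *Fcgr2b*, and 5 of 6 genes were lower, against 0.727% of all genes. In *Tgfbr2ΔEC* retinas they were -3.01, -2.85, -5.28, -3.01 and -2.73, with 5 of 6 lower, against 0.512% of all genes. The *Tgfbr2ΔEC* calls of *Fcer1g*, *Fcgr1* and *Fcgr4* were near the threshold (adjusted p = 0.0349, 0.028 and 0.0357). Leaving out mouse 6, 7, 9 or 19 left 2 genes called, *Fcgr3* and *Fcgr2b*, leaving out mouse 2, 16, 18 or 20 left 3, and leaving out mouse 3, 8 or 10 left 4. The difference between the genotypes' PLX effects was called for 0 of 6 genes and 0% of all genes (limma), with 567 genes and 0 of the 6 at an unadjusted p under 0.05.

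No change of an Fc receptor gene was detected between *Tgfbr2ΔEC* mice and controls. In choroid 0 of 6 genes were called without PLX and 0 of 6 with it, against 0.00423% of all genes in each diet, and in retina 0 of 6 in each diet, against 0% of all genes (limma). At an unadjusted p under 0.05 there were 0 of the 6 in each of these comparisons, and 2184, 889, 758 and 629 of all genes. In choroid without PLX the log2 differences, *Tgfbr2ΔEC* minus control, were -0.06 for *Fcer1g*, -0.32 for *Fcgr1*, -0.08 for *Fcgr3*, -0.21 for *Fcgr4*, -0.18 for *Fcgr2b* and 0.07 for *Fcgrt*. With PLX they ran from -0.41 for *Fcgr4* to 0.00 for *Fcgrt*. In retina with PLX they ran from -0.14 for *Fcgr2b* to 1.02 for *Fcer1g*, whose 95% confidence interval was -0.35 to 2.38. The neural retina score of choroids moved with the comparison without PLX. With it as a covariate 0 of 6 genes were called, and the log2 differences became 0.07 for *Fcer1g*, 0.10 for *Fcgr1*, -0.01 for *Fcgr3*, 0.15 for *Fcgr4*, 0.001 for *Fcgr2b* and 0.14 for *Fcgrt* (adjusted p = 0.999 for each), so that 4 of the 5 that had been negative were no longer so.

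The widest gap between genotypes was that of *Fcgr1* in retina without PLX, where controls had 62.01 ± 32.3 normalized counts (SD, n = 5) and *Tgfbr2ΔEC* mice 24.54 ± 10.4 (SD, n = 5). The log2 difference was -1.21 with a 95% confidence interval from -2.48 to 0.05 (adjusted p = 0.985 from limma). The groups overlapped, since mouse 4 of the controls, at 23.18, lay below 3 of the 5 *Tgfbr2ΔEC* mice. *Fcgr2b* showed 79.17 ± 62.3 and 40.86 ± 24.4 in the same groups, a log2 difference of -0.79 (-1.82 to 0.24). Mouse 5 was the highest control – PLX retina for *Fcer1g* and all 4 Fcgr genes and mouse 4 the lowest for 4 of these 5, and mouse 6 was the highest *Tgfbr2ΔEC* – PLX retina for all 5. The MP marker score of these 10 retinas ran in parallel at most of its ends, with 7.87 in mouse 5 and 6.86 in mouse 4 as the extremes of the controls and 7.68 in mouse 6 as the highest of the *Tgfbr2ΔEC* mice. The lowest *Tgfbr2ΔEC* score was 6.33 in mouse 10, which was lowest for 3 of the 5 genes, while mouse 8 was lowest for 2. In bulk tissue, fewer cells of a type and less RNA per cell cannot be told apart.

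The central, lesioned choroid carried far more Fc receptor RNA than the retina. All 6 genes were higher in choroid without PLX, against 37.7% of 24317 genes, and all 6 with PLX, against 37.7%. Without PLX the retina held 3.28% of the choroid level of *Fcer1g*, 5.33% for *Fcgr1*, 3.9% for *Fcgr3*, 4.71% for *Fcgr4*, 1.92% for *Fcgr2b* and 3.38% for *Fcgrt*. The log2 differences, choroid minus retina, ran from 4.45 ± 0.338 for *Fcgr1* to 6.01 ± 0.270 for *Fcgr2b*. The same ratio had a median of 6.56% over the 17 MP markers (0.695% to 55.4%), and of 0.453% over the 9 RPE and choroid markers (0.0719% to 12.2%). How much of the retinal signal came from adhering choroid was not tested.

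With PLX the gap widened for *Fcgr3*. Its difference between tissues was 4.83 on the log2 scale without PLX and 8.51 with PLX, and the difference between the 2, 3.69 ± 0.344, was the 1 call among the 6 (adjusted p = 1.89e-09), against 1.37% of all genes. With the pseudocount at 5 it was 1.62 (adjusted p = 0.000222) and with 0.5 it was 4.59. *Fcer1g*, *Fcgr1*, *Fcgr4*, *Fcgr2b* and *Fcgrt* had 1.549, 1.244, 1.104, 0.913 and 0.384 on the same scale and were not called (adjusted p = 0.149, 0.288, 0.445, 0.353 and 0.431). For the sum of *Fcgr2b* and *Fcgr3*, fitted after seeing the data, it was 2.06 ± 0.348 (adjusted p = 0.000241). The sizes of all but *Fcgrt* depend on the added 1, because the other retinal values with PLX were at or near the floor.

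Compared per kilobase of the canonical transcript, which allows levels of different genes to be set side by side, *Fcer1g* was the highest of the 6 in choroid without PLX, at 1882 ± 157 normalized counts per kilobase (SD, n = 10). It was followed by *Fcgrt* at 1468 ± 177, *Fcgr3* at 1068 ± 114 and *Fcgr2b* at 920 ± 139, and then, with no overlap to *Fcgr2b*, by *Fcgr1* at 307 ± 65 and *Fcgr4* at 248 ± 46. The ranges of each other pair of neighbours in this order overlapped. With PLX, *Fcgrt* came first at 1420 ± 233, above the range of every other gene, and *Fcer1g* second at 435 ± 145. In retina without PLX the order was *Fcer1g* (61.6 ± 33.3), *Fcgrt* (49.6 ± 10.6), *Fcgr3* (41.6 ± 22.6), *Fcgr2b* (17.6 ± 14.4), *Fcgr1* (16.4 ± 11.4) and *Fcgr4* (11.7 ± 8.76 normalized counts per kilobase), and all neighbours overlapped. In the retinas with PLX, *Fcgrt* at 37.1 ± 11 lay above the others without overlap.

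**Figure D3:**
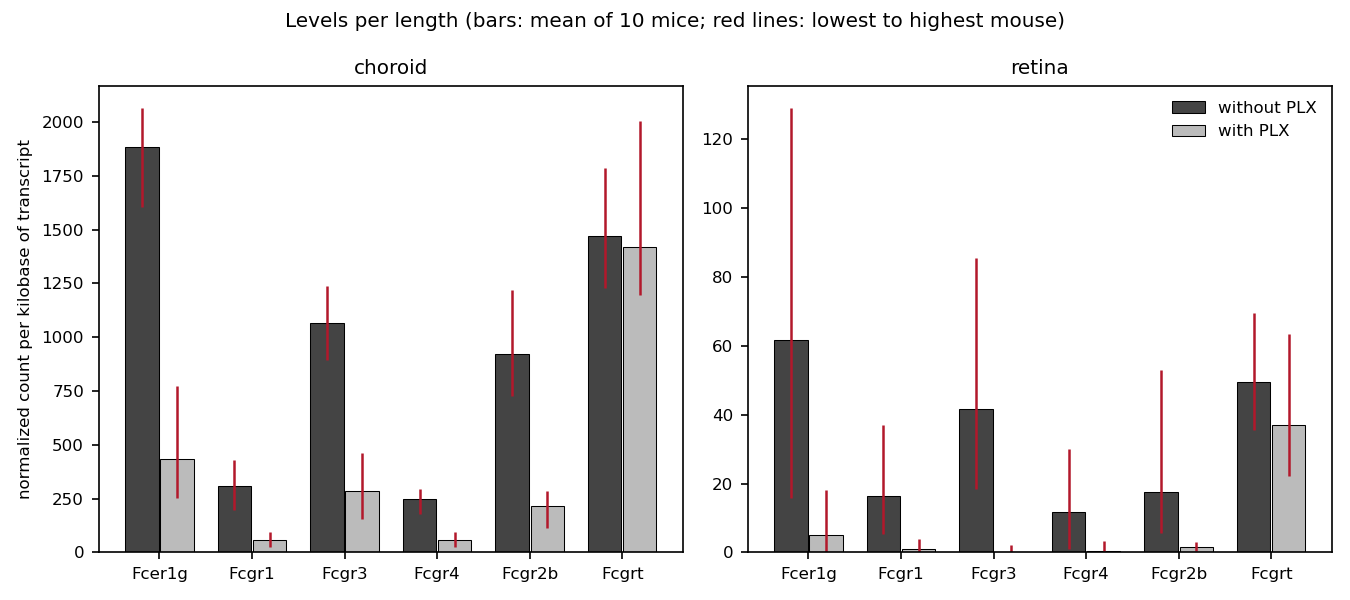
Level of each gene per kilobase of its canonical transcript in choroid (left) and retina (right), as normalized counts per kilobase, without PLX (dark bars) and with PLX (light bars). Bars are means of 10 mice of both genotypes and red lines run from the lowest to the highest mouse. *Fcgrt* keeps its level in choroid, at 1468 without and 1420 with PLX, while *Fcer1g* goes from 1882 to 435.

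The signalling partners of the receptors fell with them in choroid. Of 14 genes of Fc receptor signalling, 14 were lower with PLX in choroid, against 5.06% of all genes, with a median log2 difference of -1.58, against 0.00054 over all genes tested. The most abundant were *Cbl* (log2 difference -0.41, adjusted p = 0.0451), *Tyrobp* (-1.69, adjusted p = 1.46e-07) and *Syk* (-1.06, adjusted p = 1.6e-08), an adaptor-like ubiquitin ligase, a second activating adaptor chain and the kinase recruited by the gamma chain. In retina 8 of 14 were lower, against 1.08% of all genes, with a median of -1.78 against 0.0026 over all genes. The most abundant were *Cbl* (-0.05, adjusted p = 1) and *Pik3cd* (-0.14, adjusted p = 1), which were not called, and *Inpp5d*, the phosphatase of the inhibitory receptor (-1.31, adjusted p = 0.0227). Of the lectin and other receptors that pair with the gamma chain, 3 of 4 tested were lower in choroid, beside the same 5.06%, *Clec4n* (-1.76), *Clec4d* (-1.40) and *Clec4e* (-1.17), with a list median of -1.29. In retina 2 of 4 were lower, beside 1.08%, *Clec4n* (-2.26) and *Clec4d* (-1.82), and *Oscar*, the most abundant there, was not (0.21, adjusted p = 1).

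Among the other Fc receptors, 10 of 12 matched genes were tested in choroid and 2 were lower, against 5.06% of all genes, *Fcrl1* (log2 difference -2.25, adjusted p = 0.000112) and *Fcrlb* (-1.54, adjusted p = 0.00849), and the list median was -0.04. The most abundant, *Trim21*, the receptor for antibody in the cytosol, had 502.7 normalized counts over the 20 choroids and was not called (-0.11, adjusted p = 0.566). In retina 0 of 5 tested were called (limma), where 1.08% of all genes were lower, with a median of -0.35, and the most abundant were *Trim21* (-0.35), *Fcamr* (-0.51) and *Pigr* (-0.86). Of the partners and ligands of the neonatal receptor, *B2m*, beta-2 microglobulin, had 19604 normalized counts over the choroids and fell by 0.28 on the log2 scale (adjusted p = 0.0307), whereas in retina its difference was -0.71 (adjusted p = 0.125). *Alb* was at 2.773 normalized counts in choroid, with a difference of 0.16 (adjusted p = 0.906), and was too low to be tested in retina. The list medians were -0.06 in choroid and, from *B2m* alone, -0.71 in retina.

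Among the immunoglobulin genes, 1 of 10 tested in choroid and 1 of 3 in retina was lower with PLX, against 5.06% and 1.08% of all genes, and it was *Ighm*, the mu heavy chain, in both. *Ighm* had 732.8 and 688 normalized counts in control – PLX and *Tgfbr2ΔEC* – PLX choroids against 101.8 and 104.2 with PLX, a log2 difference of -2.79 (adjusted p = 5.34e-11). In retina it had 46.8 and 39.21 against 0.7853 and 1.022, a difference of -4.60 (adjusted p = 1.02e-09). *Igha* and *Igkc* had 0.63 (adjusted p = 0.76) and 0.53 (adjusted p = 0.671) in choroid, and in retina *Jchain* had 0.05 and *Ighg2c* 0.46 (adjusted p = 1 for both). The list medians were 0.56 in choroid and 0.05 in retina. Of the B and plasma cell markers, 1 of 6 was lower in choroid, beside the same 5.06%, *Cd79b* (-1.57, adjusted p = 4.87e-05), beside *Jchain* (0.59), which is in both lists, and *Cd79a* (0.14), and 0 of 6 in retina (limma), beside 1.08%, where *Jchain* and *Mzb1* had 0.05 each. The list medians were 0.28 and -0.30.

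**Figure D4:**
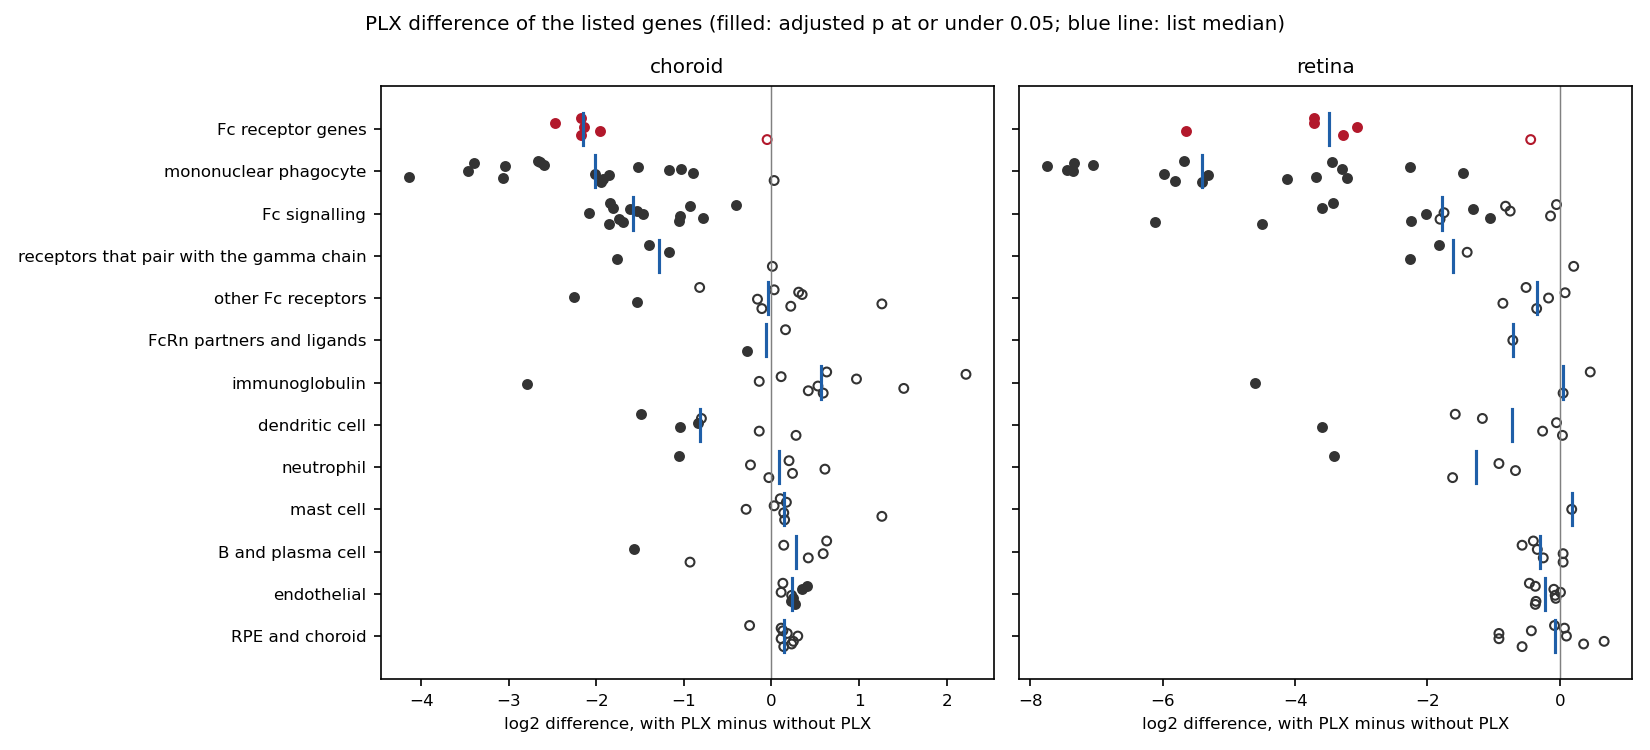
Log2 difference with PLX of every tested gene in the listed groups, in choroid (left) and retina (right). Filled points have an adjusted p at or under 0.05, blue lines are list medians, and the Fc receptor genes are in red. The median of the Fc receptor genes is -2.15 in choroid, beside -2.02 for the MP markers, and -3.49 in retina, beside -5.40.

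The cell types that could carry these receptors were followed through their markers. Of the 17 MP markers, 16 were lower in choroid, against 5.06% of all genes, with a median of -2.02 against 0.00054 over all genes. In retina 17 of 17 were lower, against 1.08% of all genes, with a median of -5.40 against 0.0026. In choroid the most abundant were *Ctss* (-1.17), *Csf1r* (-1.03) and *Laptm5* (-1.86), and the 1 gene not called was *Tmem119* (0.03, adjusted p = 0.897). Their score lay between 11.23 and 11.51 without PLX and between 8.64 and 9.61 with PLX in choroid, and between 6.33 and 7.87 without and between 1.64 and 3.15 with PLX in retina. In retina *Ctss* had -7.45 and *Csf1r* -3.29. *Fcer1g* and the 4 Fcgr genes thus fell beside the MP markers and *Fcgrt* did not pass the test, and the part of each cell type in these changes was not tested.

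The counts of the remaining cell types are to be read against 5.06% of all genes lower with PLX in choroid and 1.08% in retina. Mast cells, which carry the gamma chain in the receptor for immunoglobulin E, had 0 of 7 markers called in choroid (limma), with a median of 0.14 and *Tpsb2*, *Mcpt4* and *Cma1* at 0.15, 0.14 and 0.10. Their defining receptor gene *Fcer1a* was at 2.918 normalized counts over the choroids and at 0 in every retina, where *Hdc*, at 0.18, was the 1 marker tested. Neutrophil markers had 1 of 6 lower in choroid, *Csf3r* (-1.06, adjusted p = 1.57e-05), beside *S100a9* (-0.03) and *S100a8* (0.24), and 1 of 4 in retina, also *Csf3r* (-3.42, adjusted p = 0.000144), beside *Cxcr2* (-0.92) and *S100a9* (-1.62). The medians were 0.08 and -1.27. Dendritic cell markers had 3 of 6 lower in choroid, *Itgax* (-1.05), *Flt3* (-0.84) and *Cd209a* (-1.49) but not *Zbtb46* (0.28), and 1 of 6 in retina, *Itgax* (-3.59), beside *Zbtb46* (0.04) and *Flt3* (-0.05), with medians of -0.82 and -0.72. Natural killer and T cell markers had 0 of 6 called in choroid (limma), with a median of -0.37 and *Cd3g*, *Klrb1c* and *Cd3e* at -0.54, 0.30 and -0.28, and none was high enough to be tested in retina.

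The genes whose pattern was most like that of each member were named from the correlation of log2(normalized count + 1) over the 20 libraries of a tissue, which share the PLX contrast, among 17597 genes in choroid and 17180 in retina. In choroid these were *Arrb2*, *Cd53* and *C1qc* for *Fcer1g* (Pearson r from 0.988 to 0.991), *Clec5a*, *Epsti1* and *Casp1* for *Fcgr1* (0.979 to 0.982), and *Cd53*, *C5ar1* and *C1qc* for *Fcgr3* (0.984 to 0.987). For *Fcgr4* they were *C5ar2*, *Havcr2* and *C5ar1* (0.965 to 0.968), and for *Fcgr2b* *Tmem106a*, *Cd84* and *P2ry6* (0.983 to 0.989). *Fcgrt* was most like *Tmem50a*, *Rab29* and *H2-T23* (0.868 to 0.901), and none of these was among the genes named for the other 5. In retina they were *Ctss*, *Laptm5* and *C3ar1* for *Fcer1g* (0.923 to 0.943), *Cd68*, *Arhgap30* and *Csf1r* for *Fcgr1* (0.917 to 0.936), and *Mpeg1*, *Cx3cr1* and *Tyrobp* for *Fcgr3* (0.987 to 0.990). *Ccl6*, *Lilrb4a* and *Laptm5* were named for *Fcgr4* (0.918 to 0.931), and *Clec7a*, *Lyz2* and *C3ar1* for *Fcgr2b* (0.936 to 0.942). *Fcgrt* was most like *Cd248*, *Ldaf1* and *Cdc42ep1* (0.776 to 0.817).

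Among themselves the 5 genes that fell had r between 0.93 and 0.99 over the 20 choroids, which reflects the diet they share. Within the 2 groups without PLX, after the group means were subtracted, r over the 10 choroids ran from 0.00 for *Fcgr3* with *Fcgr2b* to 0.77 for *Fcgr3* with *Fcgr4*. In the 10 retinas without PLX it ran from 0.28 for *Fcgr1* with *Fcgr2b* to 0.94 for *Fcer1g* with *Fcgr3*. Between *Fcgrt* and the other 5 it ran from -0.64 to -0.08 in choroid and from 0.15 to 0.51 in retina. These values describe 10 libraries and the mice in them differ in depth and makeup.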

How the data were processed

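Polyadenylated RNA of both tissues was sequenced from 20 mice, whose group and number the labels give, so that replicates are separate mice. The authors checked reads with FastQC 0.11.5, estimated gene levels with salmon 1.10.1 on GRCm39 (GENCODE M29), imported them with tximport 1.24.0 and normalized them with DESeq2 1.36.0. They deposited the normalized signal per gene, called normalized counts here, which is not whole-numbered, so no count test was run. Symbols, positions and lengths were taken from GENCODE M39 by identifier (53700 of 54307 genes) and promoters from RefSeq (GRCm38.p6).

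Differences were tested with limma 3.58.1 (R 4.3.3, variance trend over mean level) after adding 1 and taking log2, for genes averaging at least 1. The 20 libraries of a tissue entered 1 fit of 4 groups, and all 40 entered 1 fit of 8 groups for tissues. P-values were Benjamini-Hochberg adjusted over all tested genes, with calls at 0.05. The covariates of the study, sex and a neuronal percentage, were left out and tried as scores. Log-normal data were simulated for the choroid PLX comparison, with changes only in genes averaging at least 10 normalized counts. Of these, 82% of 100 changed by 1 and 92% of 100 changed by 2 (log2) were called among 23186 genes, with 12 false calls. Recovery of genes near the floor was not simulated. Python 3.11.15 ran numpy 2.4.6, pandas 2.3.3 and scipy 1.17.1.

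The 6 genes and all lists were chosen with earlier results of these data known. Of 117 other listed symbols 116 matched. Named from each list were the 3 genes with the highest mean in the tissue and any called against most of its list, and for each member the 3 genes of highest correlation. A few genes that this rule names are not reported here. *Clec4e*, *Fcer1a*, *Tmem119*, *Cd209a*, *Tgfbr2* and the called genes of short lists were named after their values were seen. Alternatives were pseudocounts of 0.5 and 5, no filter or a mean of at least 10, rescaling by median ratios or upper quartiles, a robust prior, both scores as covariates, only the groups compared, leaving out each mouse, and mouse as a block between tissues, where the labels tie both tissues to 1 animal (their deviations correlated from -0.112 to 0.178). The sum of *Fcgr2b* and *Fcgr3* was added after seeing the data.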

Additional observations from a re-analysis of the deposited data

Results flagged for a closer look

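Each of the 6 genes was examined in each of 8 groups for a mouse that stood apart, by Dixon's ratio of the gap to the nearest mouse over the whole range (critical value 0.71 for 5 mice). Of 48 groups, 6 held one. About 1 in 20, or 2.4, would be expected by chance for normal and independent values. These values are neither, since several groups hold zeros and the genes share mice, so 6 and 2.4 cannot be weighed against each other. *Fcgr1* in control + PLX retina was highest in mouse 12, at 10.23 normalized counts (ratio 0.728). *Fcgr2b* in control – PLX choroid was highest in mouse 5, at 4152 (0.748), and *Fcgrt* in control + PLX choroid in mouse 12, at 5876 (0.729). The other 3 rest on single values above zeros, with a ratio of 1: *Fcgr3* at 3.217 and *Fcgr4* at 4.361 in mouse 17 of *Tgfbr2ΔEC* + PLX retina, and *Fcgr4* at 0.9681 in mouse 11 of control + PLX retina. Both this value and that of *Fcgr3* were at or under the floor of 3 reads. Mouse 17 also had the highest MP score of the retinas with PLX, 3.15.

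The PLX difference of *Fcgr3* differed between tissues by 3.69 on the log2 scale (limma, adjusted p = 1.89e-09). Its retinal values with PLX were 0 in 9 of 10 libraries, so that the size is set in part by the pseudocount.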

How the results depend on the processing

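Over 501 refits of the 17 counts of called Fc receptor genes, 487 stayed within 1.5 times the reported count and 14 did not, for 2 of the counts, and no called gene changed sign. The retinal PLX difference in *Tgfbr2ΔEC* mice, with 5 genes called, had 3 with a pseudocount of 0.5, 2 without a filter and 3 with the neural retina score added, and from 2 to 5 when single mice were left out (2 without mouse 6, 7, 9 or 19). There *Fcer1g* was not called from the 2 groups alone (adjusted p = 0.162, against 0.0349), nor *Fcgr4* with a pseudocount of 5 (adjusted p = 0.192, against 0.0357). The choroid comparison with *Fcer1g*, with 1 gene called, had 2 with the neural retina score added, and from 1 to 2 when single mice were left out (2 without mouse 11 or 12). Retinal counts with a mean of at least 10 required were 4 because *Fcgr4* was then not tested. With mouse as a replicate block, the tissue comparisons called 6, 6 and 1 of 6 genes, as without it, and the pairing changed no call.

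Depth limits the retinas with PLX, where *Fcgr3* was at or under the floor in 10 of 10 libraries, so that its fold change there is known only as a lower bound.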

Other observations

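Some markers of the vessel wall rose in choroid. Of 8 endothelial genes, 5 were higher with PLX (limma, adjusted p at or under 0.05), against 2.07% of all genes, namely *Tie1* (log2 difference 0.27, adjusted p = 0.00872), *Pecam1* (0.24, adjusted p = 0.0424), *Egfl7* (0.35, adjusted p = 0.0146), *Tek* (0.22, adjusted p = 0.0175) and *Cldn5* (0.41, adjusted p = 0.0192), with a list median of 0.23 against 0.00054 over all genes. The most abundant, *Emcn* (0.11), *Cdh5* (0.13) and *Kdr* (0.23), were not called. In retina 0 of 8 were called, beside 250 genes lower and 4 higher of all 23243. The median was -0.23, with *Kdr*, *Cldn5* and *Pecam1* at -0.07, -0.37 and -0.06. The RPE and choroid markers had 0 of 9 called in either tissue, beside 1684 of 23619 genes in choroid and 254 of 23243 in retina. Their medians were 0.14 and -0.08, with *Col1a1*, *Tyrp1* and *Dct* at 0.11, 0.14 and 0.13 in choroid and *Rpe65*, *Dct* and *Plvap* at 0.67, -0.43 and 0.10 in retina. The neural retina markers also had 0 of 10 called in either, beside the same counts over all genes. Their medians were -1.10 and 0.08, with *Gnat1* and *Sag* at -1.03 and -1.19 in choroid and 0.05 and -0.07 in retina.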
